A study of Mus musculus with 8 samples.

Results

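The genes described here are the 37 enzymes and transporters of glucose uptake, glycolysis, lactate metabolism and the tricarboxylic acid (TCA) cycle in a list of named genes, of the 23420 gene symbols that the deposited counts hold. The list was drawn up by function, but with earlier results of these data known. Of its members 35 passed the filter on low counts that left 11409 genes for testing. The members fall into 4 transporters (Slc2a1, Slc2a3, Slc16a1 and Slc16a3), 9 genes of upper glycolysis from hexokinase to triose phosphate isomerase, 6 of lower glycolysis from Gapdh to pyruvate kinase, the 2 lactate dehydrogenase subunits, and 16 genes of the TCA cycle with its cytosolic partners.

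Glycolysis splits glucose into pyruvate in the cytosol. Lactate dehydrogenase interconverts pyruvate and lactate, and the TCA cycle oxidises acetyl-CoA in mitochondria. Several steps are encoded by more than 1 gene, and T lineage cells are known to change isozymes and transporter levels with activation and proliferation, partly through the transcription factors Myc and Hif1a.

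RNA was sequenced from thymocytes of wild-type B6 and BALB mice, with no substrain, age or sex given in the sources used here. From each strain there were 2 libraries of whole thymocytes and 2 of double positive (DP) thymocytes, the CD4+ CD8+ stage at which T cell receptor alpha chains are rearranged. Per the labels, the sorted cells were CD69-negative and stained at low or medium level with H57, which binds the beta chain of the T cell receptor. The labels do not say whether the libraries of a group came from separate mice, so the tests measure the spread between these libraries, which may be technical.

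Each library had between 2632083 and 5974684 counts in genes. Levels are CPM, counts scaled to a common library size with TMM factors, and are given with the standard deviation over 2 libraries. Log2 fold changes are given with an approximate standard error. It was calculated back from the test, as the absolute log2 fold change divided by the square root of the F statistic, and is unreliable for changes near 0. Members were called at an adjusted p under 0.05, Benjamini-Hochberg over all 11409 genes, in the quasi-likelihood test of edgeR. BALB DP replicate 1 had 3.14% of its counts in Rn45s, a ribosomal RNA gene, against 5.11% to 8.35% elsewhere. The chi-square per degree of freedom was 18.2 between the BALB DP libraries against 1.62 to 4.35 within the other groups. This value includes Rn45s, depends on depth and does not tell which of the 2 libraries differed. BALB whole replicate 1 had 12313 counts of Xist and 0 of Ddx3y, and BALB whole replicate 2 had 203 and 725. The libraries of the other groups had 6 to 24 counts of Xist and 444 to 1177 of Ddx3y. Sex is not given, and its part in comparisons that use BALB whole thymocytes was not tested. Of the members, Pgk1 and Idh3g lie on the X chromosome. All 9 DP thymocyte markers were detected in every group, and their summed level was 20950 and 20000 CPM in B6 DP, 12280 and 12860 in B6 whole, 12880 and 13030 in BALB DP, and 9558 and 8952 in BALB whole thymocytes.

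The 37 members together took 2388 to 2724 CPM in each library. TCA cycle genes made up 1167 to 1364 CPM of this, upper glycolysis 453.6 to 594.9, lower glycolysis 184 to 275, lactate dehydrogenase 304 to 413 and the transporters 179 to 222. Levels of different genes were compared only per length, as CPM divided by the length in kilobases of the main GENCODE transcript. On that scale the highest mean over the 8 libraries was that of Ldhb, the heart-type lactate dehydrogenase subunit, at 163.5 CPM per kb. It was followed by mitochondrial malate dehydrogenase Mdh2 at 99.3, the muscle-type lactate dehydrogenase subunit Ldha at 76.8, pyruvate kinase Pkm at 74.2 and mitochondrial isocitrate dehydrogenase Idh2 at 68.5 CPM per kb. Over the libraries Ldhb spanned 108 to 221, Mdh2 88.9 to 133, Ldha 56.7 to 92.9, Pkm 62.1 to 89.9 and Idh2 56.6 to 81.0 CPM per kb. Although these ranges overlapped, Ldhb was above Mdh2 and Mdh2 above Ldha within every library. The order of Ldha, Pkm and Idh2 varied between libraries. The lowest non-zero mean was that of the aldolase Aldoc at 0.290 CPM per kb, with 0 to 7 counts per library, and it was not tested.

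Several glycolytic genes have processed pseudogenes of nearly the same sequence, and by default HTSeq assigns no read that aligns to more than 1 place. The 50-base windows along the main transcript were searched for in transcripts of other genes, leaving out genes that overlap the member. For Gapdh (glyceraldehyde-3-phosphate dehydrogenase) 82.5% of them were found letter for letter, in 222 genes in all, 213 of them annotated as pseudogenes. The share was 72.2% for enolase 1 (Eno1), 68.0% for phosphoglycerate kinase (Pgk1), 41.5% for phosphoglycerate mutase (Pgam1), 30.5% for Pkm and 27.0% for Ldhb. It was 21.8% for Suclg2, 19.6% for Gpi1, 17.1% for Ldha, 13.9% for Aldoa, 7.51% for Tpi1, 3.997% for Cs and 0.0543% for Pfkl, while 24 members had no such window. Not all of this was shared with pseudogenes, which were 3 of the 121 genes for Gpi1, 0 of 27 for Pfkl and 0 of 1 for Cs. Gapdh, by this measure the most shared, had 11 to 41 counts per library, and Pgam1 had 3 to 29. Below are 1 window of Gapdh, transcript bases 655 to 704 and shared with 84 other genes, 80 of them pseudogenes, and 1 window of Pgam1, bases 268 to 317 and shared with 2 pseudogenes. They are shown as examples of sequence from which a read of that length cannot be placed in 1 gene. No letter is singled out by capitals, since every base of both windows is shared.
Gapdh: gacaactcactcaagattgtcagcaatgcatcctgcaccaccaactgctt
Pgam1: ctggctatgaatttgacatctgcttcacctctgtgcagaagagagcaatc

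**Figure D1:**
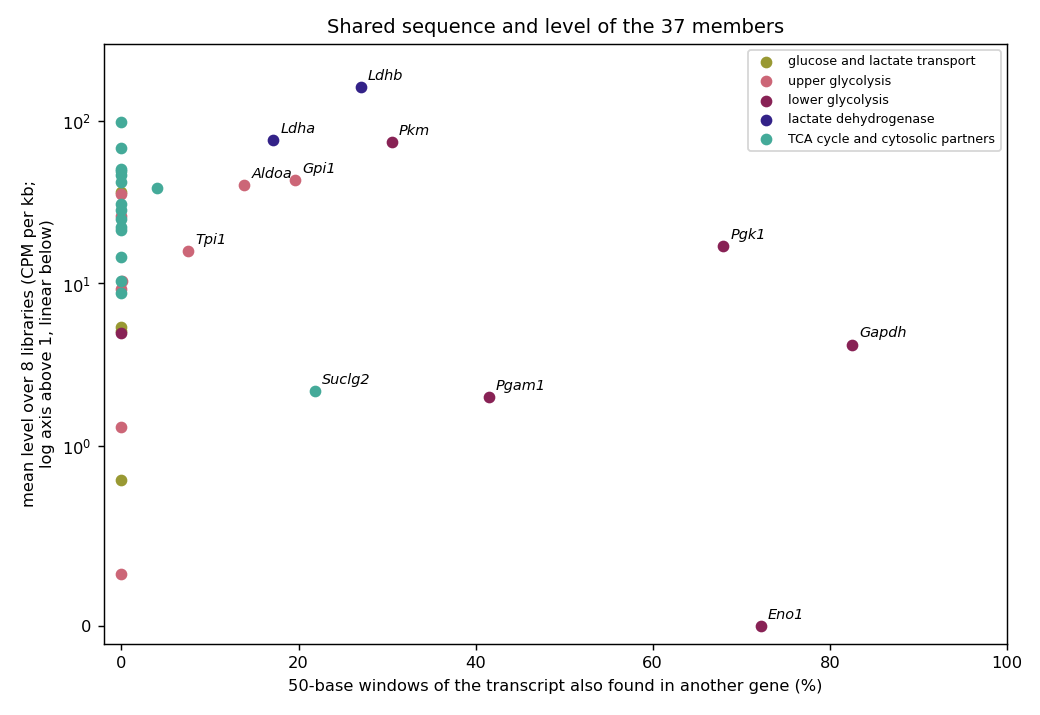
Each point is 1 of the 37 members. The x axis is the percentage of its 50-base transcript windows also found in a gene that does not overlap it. The y axis is its mean level over 8 libraries in CPM per kb, logarithmic above 1 and linear below. Gapdh, Eno1 and Pgk1 lie beyond 50%, and Eno1 lies at 0 CPM per kb.

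Eno1, the main enolase of most tissues, had 0 counts in all 8 libraries, which allows at most 3 counts in any of them, or 0.526 to 1.17 CPM, by counting error only. Of its windows 27.8% were in no other gene. The near-identical copy Eno1b, listed in the counts under its older symbol Gm5506 and chosen for mention after its values were seen, had 3 and 4 counts in B6 DP, 4 and 5 in B6 whole, 14 and 12 in BALB DP, and 19 and 31 in BALB whole thymocytes. Every BALB library thus had more Eno1b counts than any B6 library. Reads of both strains were aligned to the same genome, mm10, and the effect of sequence differences between the strains on these counts was not tested. Enolase activity in these cells cannot be read from these values, and the reason for the zero was not tested. The exons of 10 members, among them Hk1, Pfkp, Aldoa, Tpi1, Idh3b and Mdh1, overlap exons of another gene, and since the kit does not keep the strand, reads from either strand cannot be told apart there.

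The first question was how whole thymocytes, which also hold stages other than DP, differ from sorted DP cells. Over both strains 7 of the 35 tested members were called, 20% of them against 20.5% of all tested genes (12.5% higher and 8.01% lower), so their share was near the background. Of these, 5 were higher in whole thymocytes, the glucose transporter Slc2a3, hexokinase 2 (Hk2), Aldoa, Eno3 and Ldha, and 2 were lower, hexokinase 1 (Hk1) and Ldhb. No TCA cycle gene was among them. The median log2 fold change over the 35 members was 0.08 against -0.01 over all genes.

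Ldha, Ldhb and Aldoa, 3 members in all, were called in B6 and in BALB, and the lactate dehydrogenase subunits had opposite signs. Ldha, whose subunit favours the conversion of pyruvate to lactate, had 110.2 and 100.1 CPM in B6 DP, 146 and 151 in B6 whole, 125 and 125 in BALB DP, and 164 and 163.5 in BALB whole thymocytes. All 4 whole thymocyte libraries lay above all 4 DP libraries. The log2 fold change over both strains was 0.44 ± 0.075 (edgeR adjusted p = 0.00139), with 0.50 ± 0.10 in B6 (adjusted p = 0.0103) and 0.39 ± 0.10 in BALB (adjusted p = 0.0246). Ldhb, whose subunit favours the use of lactate, had 269 and 244 CPM in B6 DP, 173 and 182 in B6 whole, 288 and 228 in BALB DP, and 182 and 141 in BALB whole thymocytes. Here the 4 whole thymocyte libraries were all below the 4 DP libraries. Its log2 fold change over both strains was -0.61 ± 0.10 (edgeR adjusted p = 0.00140), -0.53 ± 0.14 in B6 (adjusted p = 0.0361) and -0.68 ± 0.14 in BALB (adjusted p = 0.00689). Per length, Ldhb made up 76.7% ± 0.0283 of the sum of both subunits in B6 DP and 61.8% ± 0.354 in B6 whole thymocytes (SD, n = 2 libraries), and 73.4% ± 3.22 in BALB DP and 56.9% ± 4.35 in BALB whole thymocytes. Leaving out any 1 of the 4 B6 libraries ended both calls in B6, with adjusted p up to 0.138 for Ldha and 0.243 for Ldhb. In BALB the Ldha call was lost without BALB whole replicate 1 (edgeR adjusted p = 0.103) or 2 (0.09995), and narrowly without any B6 library (0.0506 to 0.0629). It was also lost under DESeq2's Wald test (0.0811) and on the 4 BALB libraries alone (0.127). The Ldhb call was lost in BALB without BALB whole replicate 2 (0.0743) and in B6 also under the strict filter, a CPM of 1 in 2 libraries and a mean of 50 counts (0.0823).

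The hexokinases, which phosphorylate glucose on entry, showed opposite signs. Hk2, the inducible isozyme, had 3.77 and 2.29 CPM in B6 DP, 13.5 and 8.95 in B6 whole, 3.15 and 6.21 in BALB DP, and 7.73 and 11.7 in BALB whole thymocytes. Each whole thymocyte library was above every DP library, at 32 to 54 counts against 10 to 18. Over both strains its log2 fold change was 1.53 ± 0.30 (edgeR adjusted p = 0.00374), in B6 1.92 ± 0.42 (adjusted p = 0.0139) and in BALB 1.19 ± 0.40, which missed the threshold (adjusted p = 0.0642). The B6 call was lost without B6 DP replicate 2 (adjusted p = 0.146) or B6 whole replicate 1 (0.141). Hk1, the constitutive isozyme, had 141 and 135 CPM in B6 DP, 118.5 and 125 in B6 whole, 158 and 175 in BALB DP, and 124 and 126 in BALB whole thymocytes. Every whole thymocyte library was below every DP library, and BALB DP was highest. Whole over DP was -0.30 ± 0.082 on the log2 scale over both strains (edgeR adjusted p = 0.0238) and -0.41 ± 0.11 in BALB (adjusted p = 0.0198), while -0.18 ± 0.11 in B6 was not called (adjusted p = 0.339). The call over both strains was lost without B6 whole replicate 1 (adjusted p = 0.0589), BALB DP replicate 2 (0.0570) or BALB whole replicate 1 (0.0723) or 2 (0.0705), and under upper-quartile scaling (0.0528) or the strict filter (0.0712). The BALB call was lost without BALB whole replicate 1 (0.0975) or 2 (0.0824), under the strict filter (0.0517), under DESeq2's Wald test (0.0618) and on the 4 BALB libraries alone (0.122). Hk2 was the minor isozyme in every group, at 1.502% ± 0.475 of the summed CPM per kb of both genes in B6 DP, 6.07% ± 1.84 in B6 whole, 1.90% ± 0.740 in BALB DP and 5.15% ± 1.37 in BALB whole thymocytes.

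Aldoa, the aldolase that splits fructose-1,6-bisphosphate, had 36.7 and 36.3 CPM in B6 DP, 62.7 and 67.97 in B6 whole, 57.6 and 50.9 in BALB DP, and 77.3 and 97.1 in BALB whole thymocytes. In each strain both whole thymocyte libraries were above both DP libraries, and in each population both BALB libraries were above both B6 libraries. The log2 fold change of whole over DP was 0.75 ± 0.11 over both strains (edgeR adjusted p = 0.000373), 0.84 ± 0.15 in B6 (adjusted p = 0.00479) and 0.67 ± 0.14 in BALB (adjusted p = 0.00776). The B6 call was lost without B6 DP replicate 2 (adjusted p = 0.0506) or B6 whole replicate 2 (0.0583), and the BALB call without BALB whole replicate 2 (0.0904). Eno3, the muscle-type enolase and the tested enolase among the members, had 5.34 and 8.46 CPM in B6 DP, 11 and 10.2 in B6 whole, 3.50 and 5.44 in BALB DP, and 9.18 and 8.49 in BALB whole thymocytes. Whole thymocytes were above DP thymocytes in each strain, and the DP libraries of a strain differed more from each other than the whole ones did. Whole over DP was 0.80 ± 0.23 on the log2 scale over both strains (edgeR adjusted p = 0.0267), 1.07 ± 0.33 in BALB (adjusted p = 0.0462) and 0.58 ± 0.30 in B6, where it was not called (adjusted p = 0.267). The call over both strains was lost without B6 DP replicate 1 (adjusted p = 0.0747), B6 whole replicate 1 (0.0630), BALB DP replicate 1 (0.0653) or BALB whole replicate 1 (0.0716) or 2 (0.0607), without both BALB replicates numbered 1 (0.0896) and under DESeq2's Wald test (0.0564). In BALB alone it was lost without either B6 whole library (0.0759 and 0.0755), BALB DP replicate 1 (0.339) or BALB whole replicate 1 (0.163) or 2 (0.117), and without both BALB replicates numbered 1 (0.437). It was lost as well under DESeq2's Wald test (0.176), under the replicate block (0.0583) and on the 4 BALB libraries alone (0.0952).

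Of the transporters, Slc2a3 (GLUT3), a high-affinity glucose transporter, had 15.7 and 15.3 CPM in B6 DP, 18.8 and 21.04 in B6 whole, 16.6 and 14.8 in BALB DP, and 28.3 and 31.7 in BALB whole thymocytes. All whole thymocyte libraries were above all DP libraries, and BALB whole thymocytes were highest. Its log2 fold change was 0.65 ± 0.15 over both strains (edgeR adjusted p = 0.00954), 0.91 ± 0.18 in BALB (adjusted p = 0.00456) and 0.36 ± 0.19 in B6, which was not called (adjusted p = 0.274). Slc2a1 (GLUT1), the widely expressed glucose transporter, had 14.1 and 18.97 CPM in B6 DP, 15.8 and 19.1 in B6 whole, 12.6 and 14.4 in BALB DP, and 21.7 and 23.5 in BALB whole thymocytes. The B6 groups overlapped, and in BALB both whole libraries were above both DP libraries. The log2 fold change in BALB was 0.76 ± 0.21 (edgeR adjusted p = 0.0286), and it was lost without BALB DP replicate 1 (0.140) or BALB whole replicate 1 (0.0848) or 2 (0.133), without both BALB replicates numbered 1 (0.137), under DESeq2's Wald test (0.118) and on the 4 BALB libraries alone (0.0700). In B6 it was 0.06 ± 0.21. The lactate carriers Slc16a1 (MCT1) and Slc16a3 (MCT4) were called in no comparison of populations. Per length Slc16a3 made up 1.73% to 3.14% of the sum of both in the group means.

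**Figure D2:**
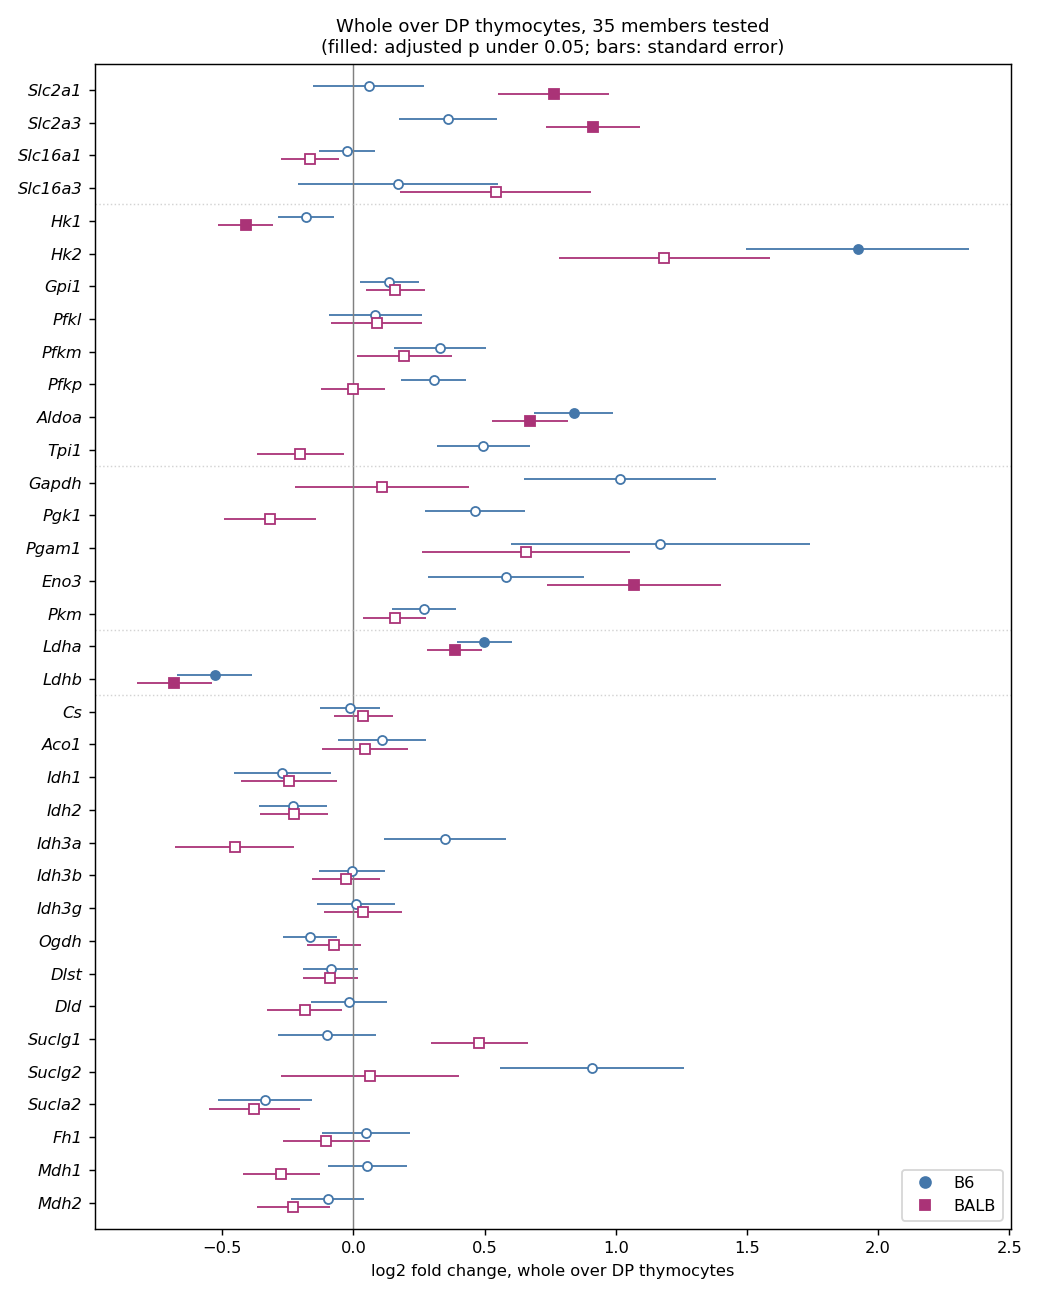
Log2 fold changes of whole over DP thymocytes for the 35 tested members in B6 and in BALB, with standard errors as bars and filled symbols for an adjusted p under 0.05. Ldha and Aldoa lie to the right and Ldhb to the left in both strains, and no TCA cycle gene is filled.

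Counted within strains, 4 of 35 members were called in B6, 3 higher (8.57%, against 6.89% of all genes) and 1 lower (2.86%, against 3.27%), or 11.4% against 10.2% in either direction. In BALB 7 were called, 5 higher (14.3%, against 10.6%) and 2 lower (5.71%, against 6.59%), or 20% against 17.2%. Upper-quartile scaling raised the share of higher genes among all calls in BALB from 61.7% to 72.3%, and 7 members were called under it too. Without B6 DP replicate 2 no member was called in B6 (0), without B6 DP replicate 1 there were 2, without either B6 whole library 1, and without either BALB DP library 7. In BALB there were 3 without BALB whole replicate 1, 2 without BALB whole replicate 2 and 14 without BALB DP replicate 2. Over both strains the count ran from 5 to 9 with 1 library left out, and it was 11 without BALB DP replicate 1 and BALB whole replicate 1 together. Slc2a3, Hk2, Aldoa, Ldha and Ldhb, which is 5 of the 7, were called over both strains under every alternative in which they were tested.

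The other lower glycolysis genes had positive log2 fold changes in B6 and no call. These were 1.02 ± 0.37 for Gapdh (edgeR adjusted p = 0.109), 0.46 ± 0.19 for Pgk1 (0.157), 1.17 ± 0.57 for Pgam1 (0.242) and 0.27 ± 0.12 for Pkm (0.202). In BALB they were 0.11 ± 0.33, -0.32 ± 0.18, 0.66 ± 0.40 and 0.16 ± 0.12, with adjusted p from 0.244 to 0.855. The 16 TCA cycle genes had a median log2 fold change of -0.07 over both strains, 11 of them below 0. The one nearest the threshold was Sucla2, the ATP-forming succinyl-CoA ligase subunit, at -0.36 ± 0.12 (edgeR adjusted p = 0.0608).

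Summed marker levels of other cell types, apart from the sum of endothelial and mesenchymal genes, differed between the populations as well. Summed over 6 genes, markers of mature thymocytes had 68.1 to 71.6 CPM in B6 DP and 64.4 to 66.8 in BALB DP against 262 to 299.5 and 399.9 to 420.5 in whole thymocytes, with S1pr1 at 0 in B6 DP. The 9 myeloid and dendritic cell markers had 27.6 to 44.5 CPM in DP and 113.2 to 157 in whole thymocytes, with Itgax at 0 in B6 DP and Emr1 at 0 in BALB DP. The 7 thymic epithelial markers had 2.80 to 5.71 CPM in DP libraries, 22.8 and 33.6 in B6 whole and 73.9 and 79.6 in BALB whole thymocytes. Krt5, Krt8 and Foxn1 were at 0 in B6 DP, and Prss16 and Foxn1 in BALB DP. The 6 B cell markers had 3.49 to 10.97 CPM in DP and 13.7 to 19.3 in whole thymocytes, with Pax5 at 0 in BALB DP, and the 6 erythroid genes found had 5.82 to 10.1 and 18.4 to 34.95, with Hba-a1 and Hba-a2 at 0 in every group and Slc4a1 in B6 whole thymocytes. The 5 DN thymocyte markers had 404.5 and 406.5 CPM in B6 DP, 519.8 and 572 in B6 whole, 291.7 and 355 in BALB DP, and 389 and 430.1 in BALB whole thymocytes. The 5 endothelial and mesenchymal genes had 143.5 and 161.8 CPM in B6 DP, 167.2 and 155.3 in B6 whole, 122.8 and 136.7 in BALB DP, and 132.8 and 163.8 in BALB whole thymocytes. Their sums in DP and whole thymocytes thus overlapped in each strain. Of single genes, Cdh5 and Col3a1 were at 0 in B6 DP and Col3a1 in BALB DP, while none of the 5 was at 0 in either group of whole thymocytes. The part of these cells in the changes of Slc2a3, Hk2, Aldoa, Eno3, Ldha, Hk1 and Ldhb was not tested. In bulk RNA, fewer cells of a type and less RNA per cell cannot be told apart.

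Promoter sequence is shown for 5 members called in whole over DP thymocytes, Ldha, Hk2 and Aldoa as genes that were higher and Ldhb and Hk1 as genes that were lower. Each run is 300 bases, from 250 before to 50 after a transcription start, from RefSeq's GRCm38.p6 (mm10) annotation, and capitals mark ACGTG, the core of hypoxia response elements and of the E-box CACGTG bound by Myc and its partners, or GCGTG, the other core hypoxia response form, on either strand. A CACGTG holds ACGTG on both strands and is counted on each. The windows are Ldha at chr7:46845554-46845853 on the plus strand, and on the minus strand Hk2 at chr6:82774405-82774704, Aldoa at chr7:126799205-126799504, Ldhb at chr6:142507908-142508207 and Hk1 at chr10:62340372-62340671.
Ldha: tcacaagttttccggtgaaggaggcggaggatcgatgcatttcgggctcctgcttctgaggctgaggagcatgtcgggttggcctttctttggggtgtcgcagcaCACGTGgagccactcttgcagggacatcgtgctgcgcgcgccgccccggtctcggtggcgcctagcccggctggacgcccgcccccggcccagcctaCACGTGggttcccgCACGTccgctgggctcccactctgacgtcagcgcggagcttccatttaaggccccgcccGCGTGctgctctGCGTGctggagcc
Hk2: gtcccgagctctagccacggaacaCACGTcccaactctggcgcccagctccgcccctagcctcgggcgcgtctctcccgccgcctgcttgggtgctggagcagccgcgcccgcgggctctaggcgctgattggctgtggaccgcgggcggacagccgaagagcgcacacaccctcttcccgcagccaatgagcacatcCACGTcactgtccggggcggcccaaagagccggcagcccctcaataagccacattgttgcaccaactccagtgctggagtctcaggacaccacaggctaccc
Aldoa: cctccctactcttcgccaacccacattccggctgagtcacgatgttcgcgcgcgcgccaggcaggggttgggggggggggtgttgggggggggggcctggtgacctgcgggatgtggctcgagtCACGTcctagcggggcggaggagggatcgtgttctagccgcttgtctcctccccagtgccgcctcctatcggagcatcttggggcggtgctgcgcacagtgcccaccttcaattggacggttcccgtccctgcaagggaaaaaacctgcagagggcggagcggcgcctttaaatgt
Ldhb: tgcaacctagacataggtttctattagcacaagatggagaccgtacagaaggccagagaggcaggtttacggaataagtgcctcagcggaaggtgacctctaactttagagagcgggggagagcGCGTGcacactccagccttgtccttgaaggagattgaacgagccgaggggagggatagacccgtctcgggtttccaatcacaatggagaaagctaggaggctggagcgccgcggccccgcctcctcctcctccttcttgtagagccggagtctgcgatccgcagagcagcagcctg
Hk1: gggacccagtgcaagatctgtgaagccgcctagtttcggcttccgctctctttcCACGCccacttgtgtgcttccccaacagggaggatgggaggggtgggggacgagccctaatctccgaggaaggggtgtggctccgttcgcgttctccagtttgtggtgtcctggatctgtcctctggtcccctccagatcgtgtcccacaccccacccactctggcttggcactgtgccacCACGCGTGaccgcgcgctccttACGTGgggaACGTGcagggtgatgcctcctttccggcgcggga

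The Ldha window held 5 matches to ACGTG, 4 of them from 2 CACGTG, and 2 to GCGTG. Hk2 held 2 to ACGTG and none to GCGTG, and Aldoa 1 to ACGTG. Ldhb held 1 to GCGTG, and Hk1 held 2 to ACGTG and 3 to GCGTG. Where a gene has several starts, the window shown is one that holds a core. Of the 2 windows of Hk1 the other held 0 matches, of the 3 of Aldoa one held 0 and one 1, and the other window of Ldha held 2 to GCGTG. Either core was present in 39 of the 52 windows of the 35 members with an entry, 75.0%, against 43.8% of 32851 windows of all genes. Both cores contain CG, the windows compared were not matched for CG content, and some windows of the same gene overlap. Whether the cores are enriched in the members was not tested. ACGTG alone was in 19.6% of all windows, GCGTG in 32.4% and CACGTG in 7.15%. These matches describe letters only and were present in genes that rose and in genes that fell.

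The second question was how the strains differ. In DP thymocytes 5 of 35 members were called, all higher in BALB, which is 14.3% of members against 6.85% of all genes called higher, 6.14% called lower and 13.0% called in either direction. They were phosphofructokinase Pfkp, Aldoa, triose phosphate isomerase Tpi1, Pgk1 and cytosolic malate dehydrogenase Mdh1. The median log2 fold change was 0.19 over the 35 members, 25 of them above 0, and 0.0028 over all genes. This comparison shares its B6 DP libraries with that of whole over DP thymocytes in B6, and its BALB DP libraries with that in BALB. As for Eno1b, the effect of aligning reads of both strains to mm10 was not tested.

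Pgk1, which forms ATP in lower glycolysis, had 23.5 and 19.2 CPM in B6 DP, 31 and 27.6 in B6 whole, 44.9 and 35.3 in BALB DP, and 31.2 and 34.2 in BALB whole thymocytes. B6 DP was lowest, and both BALB DP libraries were above all others. The log2 fold change of BALB over B6 in DP cells was 0.94 ± 0.19, a 1.92-fold difference (edgeR adjusted p = 0.00676). Of the Pgk1 windows 68.0% are shared with other genes. Tpi1, which interconverts the triose phosphates, had 17.3 and 19.2 CPM in B6 DP, 25.5 and 26.1 in B6 whole, 31.9 and 30.3 in BALB DP, and 29.5 and 24.7 in BALB whole thymocytes. Its B6 DP libraries were below all others. BALB over B6 in DP cells was at a log2 fold change of 0.77 ± 0.18 (edgeR adjusted p = 0.0143). Pfkp, the platelet-type subunit of the enzyme at the committed step of glycolysis, had 86.95 and 82.03 CPM in B6 DP, 103 and 105.5 in B6 whole, 120.2 and 120.3 in BALB DP, and 108 and 132 in BALB whole thymocytes. Both BALB DP libraries were above both B6 DP libraries by more than the spread within either group. The difference was 0.51 ± 0.12 on the log2 scale (edgeR adjusted p = 0.0194). For Aldoa, whose values are given above, the log2 fold change was 0.58 ± 0.15 (edgeR adjusted p = 0.0292).

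Mdh1, a part of the shuttle that carries reducing equivalents into mitochondria, had 108 and 79.98 CPM in B6 DP, 92.2 and 102 in B6 whole, 139.8 and 126 in BALB DP, and 117 and 103 in BALB whole thymocytes. The B6 DP libraries differed from each other but both were below both BALB DP libraries. On the log2 scale BALB exceeded B6 by 0.51 ± 0.15 (edgeR adjusted p = 0.0450). Without B6 DP replicate 2 none of the 5 was called (0 members), with adjusted p of 0.1005 for Pgk1, 0.0768 for Tpi1, 0.159 for Pfkp, 0.166 for Aldoa and 0.362 for Mdh1. Without B6 DP replicate 1 there were 2 calls, without either B6 whole library 3, and without BALB DP replicate 2 there were 11. Without BALB DP replicate 1 there were 4, and the adjusted p was 0.0557 for Tpi1, 0.126 for Aldoa and 0.120 for Mdh1. DESeq2's Wald test called 2. Of 17 alternatives, the call was lost in 10 for Mdh1, 8 for Aldoa, 5 for Tpi1, 3 for Pfkp and 2 for Pgk1. Fitted on the 4 DP libraries alone, the test called 0 members and 562 genes, against 1482 genes in the fit to all 8.

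Proliferation markers also differed between BALB and B6 DP cells. The 12 cell cycle genes summed to 5999 and 5588 CPM in B6 DP, 5246 and 5634 in B6 whole, 9560 and 7916 in BALB DP, and 5792 and 5531 in BALB whole thymocytes. Of the 12, 11 were called higher in BALB DP than in B6 DP cells (91.7%, against 6.85% of all genes). In BALB 8 of the 12 were called lower in whole than in DP thymocytes (66.7%, against 6.59% of all genes). Of Pgk1, Tpi1, Pfkp, Aldoa and Mdh1, only Aldoa was called in that comparison, as higher in whole thymocytes. The log2 fold changes not called were -0.32 ± 0.18 for Pgk1, -0.20 ± 0.17 for Tpi1, -0.27 ± 0.15 for Mdh1 and -4e-04 for Pfkp. The part of the cell cycle genes in the levels of these members was not tested.

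In whole thymocytes no member was called between strains (0 of 35, against 4.59% of all genes, 1.98% higher and 2.61% lower), by edgeR, DESeq2 or limma-voom, and 5 had an unadjusted p under 0.05. The smallest p-values were those of Slc2a3 at 0.59 ± 0.17 (edgeR adjusted p = 0.0884), Slc16a1 at -0.34 ± 0.11 (0.129) and Aldoa at 0.42 ± 0.14 (0.159). Slc16a1, which carries lactate and other monocarboxylates, had 182 and 176 CPM in B6 DP, 174 and 178 in B6 whole, 146.5 and 168 in BALB DP, and 146 and 133 in BALB whole thymocytes. Both BALB libraries were below both B6 libraries in each population. Without BALB DP replicate 1 there were 2 calls, Slc2a3 (edgeR adjusted p = 0.0388) and Slc16a1 (0.0111), and without BALB DP replicate 2 there were 4, with Aldoa at 0.0495. These libraries do not enter the contrast but share its estimate of spread.

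**Figure D3:**
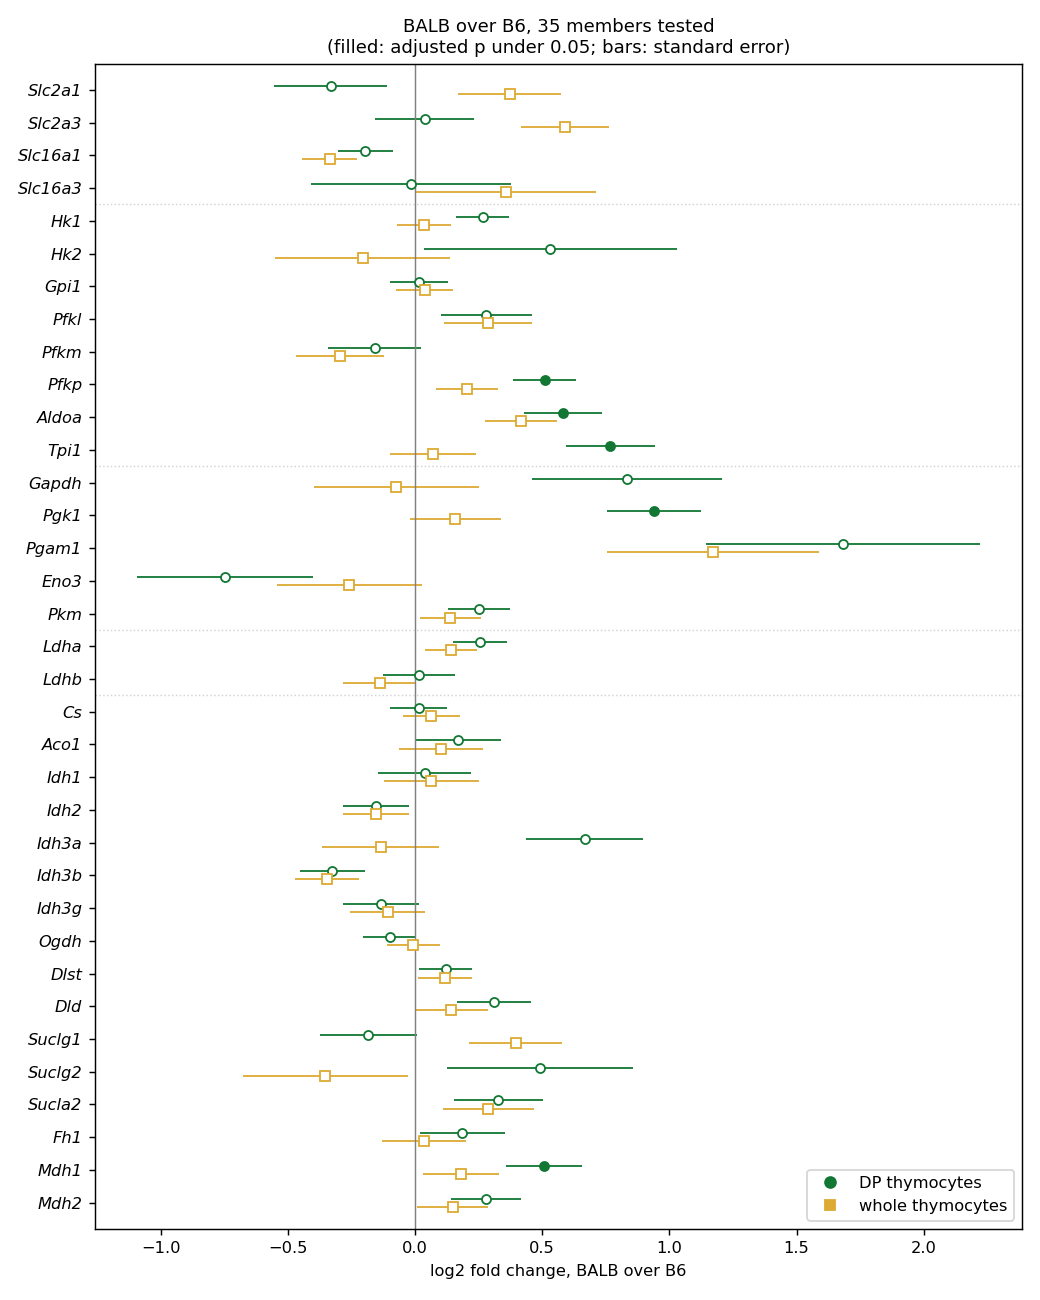
Log2 fold changes of BALB over B6 for the 35 tested members in DP (circles) and whole thymocytes (squares), with standard errors as bars and filled symbols for an adjusted p under 0.05. The 5 filled symbols are Pfkp, Aldoa, Tpi1, Pgk1 and Mdh1 in DP thymocytes, and no square is filled.

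Over both populations 4 members were called between strains, 3 higher in BALB (8.57%, against 4.84% of all genes) and 1 lower (2.86%, against 6.0%), or 11.4% against 10.8%. Pgam1 had 0.942 and 1.37 CPM in B6 DP, 3.25 and 2.18 in B6 whole, 2.98 and 5.44 in BALB DP, and 7.004 and 5.24 in BALB whole thymocytes, from 3 to 29 counts. In each population both BALB libraries were above both B6 libraries. Its log2 fold change was 1.36 ± 0.32 (edgeR adjusted p = 0.0187), and 41.5% of its windows are shared with other genes. Aldoa was at 0.49 ± 0.11 (adjusted p = 0.0107) and Pfkp at 0.35 ± 0.097 (adjusted p = 0.0361). The lower gene was Idh3b, the beta subunit of the NAD-dependent isocitrate dehydrogenase of the TCA cycle, with 78.8 and 72.9 CPM in B6 DP, 79.7 and 71.1 in B6 whole, 58.2 and 63.3 in BALB DP, and 57.7 and 60.9 in BALB whole thymocytes. All 4 BALB libraries were below all 4 B6 libraries. BALB over B6 was -0.34 ± 0.089 on the log2 scale (edgeR adjusted p = 0.0311).

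Leaving out 1 library took this count from 0 (without B6 DP replicate 2) to 5. It was 1 without B6 DP replicate 1 or B6 whole replicate 2, and 2 without B6 whole replicate 1 or BALB whole replicate 2. Without B6 DP replicate 2 the edgeR adjusted p was 0.05003 for Aldoa, 0.0590 for Pgam1, 0.0607 for Idh3b and 0.163 for Pfkp. Idh3b was also lost without B6 DP replicate 1 (0.104), either B6 whole library (0.121 and 0.0558) or either BALB whole library (0.0782 and 0.0651), without both BALB replicates numbered 1 (0.0643) and under DESeq2's Wald test (0.0664). Pfkp was also lost without B6 DP replicate 1 (0.1096), either B6 whole library (0.0741 and 0.0566), BALB DP replicate 2 (0.0812) or BALB whole replicate 2 (0.106), and under the replicate block (0.0531). Pgam1 was also lost without B6 DP replicate 1 (0.0542), B6 whole replicate 2 (0.0690) or BALB whole replicate 1 (0.0601). The other subunits of the same enzyme were Idh3a at 0.26 ± 0.20 and Idh3g at -0.12 ± 0.10, neither called.

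The third question was whether the difference between populations depends on strain. The interaction, BALB over B6 in whole minus that in DP thymocytes, called 0 of 35 members by edgeR, DESeq2 or limma-voom, against 0.123% of all genes (0.105% above and 0.0175% below 0), and 5 members had an unadjusted p under 0.05. The smallest p-values were those of Pgk1 at -0.78 ± 0.26 (edgeR adjusted p = 0.300), Tpi1 at -0.70 ± 0.24 (0.332) and Idh3a at -0.80 ± 0.33 (0.409). Idh3a, the catalytic subunit, had 48.97 and 37.3 CPM in B6 DP, 50.5 and 58.5 in B6 whole, 83.9 and 48.5 in BALB DP, and 54.1 and 45.2 in BALB whole thymocytes. BALB DP replicate 1 was the highest of all libraries and its partner replicate 2 lay within the range of the rest. Without BALB DP replicate 2 the interaction was called for Idh3a (edgeR adjusted p = 0.00259) and Pgk1 (0.0141), and with no filter on low counts for Idh3a alone (0.0438). Calls made in 1 strain and not in the other, such as those of Slc2a3, Slc2a1, Eno3 and Hk1 in BALB and Hk2 in B6, were thus not shown to differ between strains, the interaction of Slc2a1 being 0.71 ± 0.30 (adjusted p = 0.428) and that of Hk2 -0.74 ± 0.60 (adjusted p = 0.680).

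**Figure D4:**
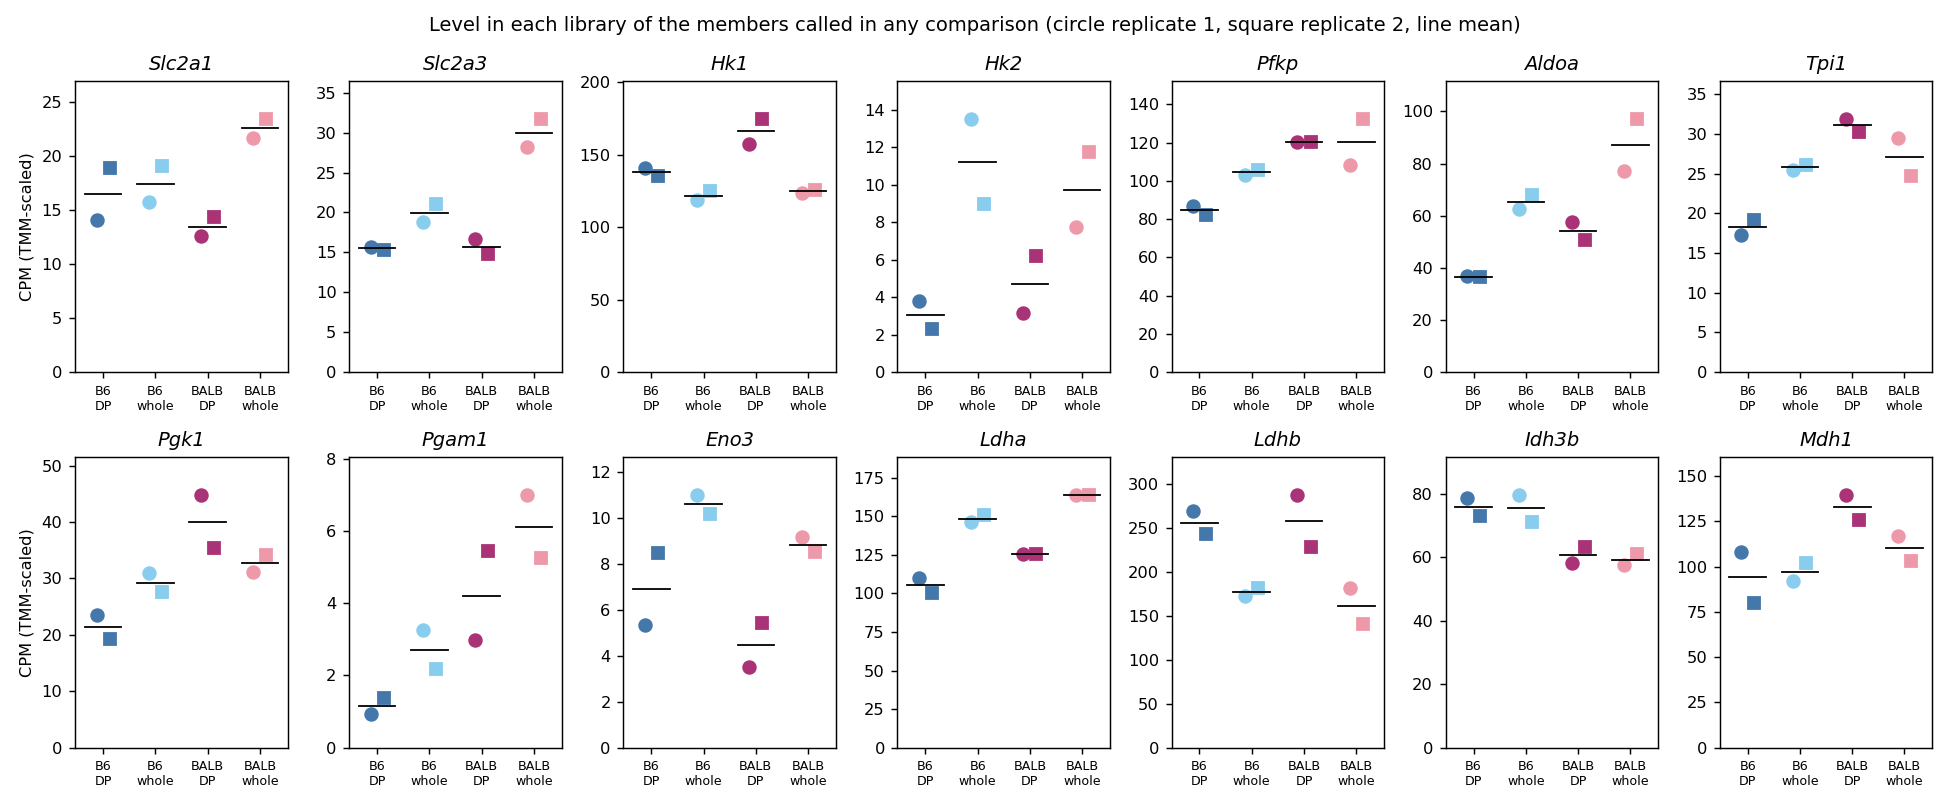
CPM of the 14 members called in any of the 7 comparisons, with 1 symbol per library, a line at the mean of each group and a separate axis from 0 for each gene. Ldha is higher and Ldhb lower in all whole thymocyte libraries than in all DP libraries, and Pgk1 and Tpi1 are lowest in B6 DP.

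For the 21 tested members called in no comparison, a missed threshold does not show equal levels. The ratio of the highest to the lowest of the 4 group means was 1.05 for citrate synthase (Cs), which opens the TCA cycle, 1.12 for fumarase (Fh1) and 1.13 for both the 2-oxoglutarate dehydrogenase subunit Ogdh and glucose-6-phosphate isomerase (Gpi1). It was 1.54 for Idh3a and 1.57 for Sucla2, and highest for Suclg2 at 1.88 and Gapdh at 2.04, whose counts were 11 to 52 and 11 to 41 per library. The most highly expressed of them per length were Mdh2, Pkm and Idh2. Mdh2 had 134 and 143 CPM in B6 DP, 129.5 and 129 in B6 whole, 194 and 139.8 in BALB DP, and 145 and 142 in BALB whole thymocytes. BALB DP replicate 1 was above the others, which lay between 129 and 145 CPM. Pkm, the last step of glycolysis, had 151 and 154.5 CPM in B6 DP, 183 and 185 in B6 whole, 165 and 200.3 in BALB DP, and 187 and 219 in BALB whole thymocytes. B6 DP was lowest, with a log2 fold change of 0.21 ± 0.087 for whole over DP over both strains (edgeR adjusted p = 0.110). Idh2, which forms NADPH in mitochondria, had 141 and 130 CPM in B6 DP, 121 and 110.3 in B6 whole, 109 and 136 in BALB DP, and 98.8 and 109 in BALB whole thymocytes. DP levels overlapped with whole thymocyte levels in BALB and lay above them in B6, with -0.23 ± 0.092 over both strains (edgeR adjusted p = 0.103).

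Other steps are also served by several genes. Per length, Pfkp was 53.2% ± 1.75 of the summed phosphofructokinase genes in B6 DP, 54.8% ± 3.27 in B6 whole, 60.3% ± 2.87 in BALB DP and 58.1% ± 6.71 in BALB whole thymocytes. Pfkm, the muscle-type subunit, was 23.2% ± 0.799, 24.3% ± 2.39, 16.6% ± 0.163 and 18.3% ± 2.72 in the same order, and its BALB libraries (16.4% to 20.3%) were all below its B6 libraries (22.6% to 26.0%). Slc2a3 was 43.9% ± 5.56, 48.5% ± 1.38, 49.0% ± 4.43 and 52.2% ± 0.679 of Slc2a1 plus Slc2a3. Slc2a1 was thus the larger in 3 groups and Slc2a3 in BALB whole thymocytes, with single libraries from 39.9% to 52.7%. Sucla2 was 93.2% ± 1.17, 85.4% ± 1.91, 93.2% ± 2.34 and 90.1% ± 1.82 of Sucla2 plus Suclg2, where 21.8% of the Suclg2 windows are shared. Cytosolic Idh1 was 12.3% to 14.2% of Idh1 plus Idh2, and cytosolic Mdh1 31.7% to 35.6% of Mdh1 plus Mdh2, in the group means.

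**Figure D5:**
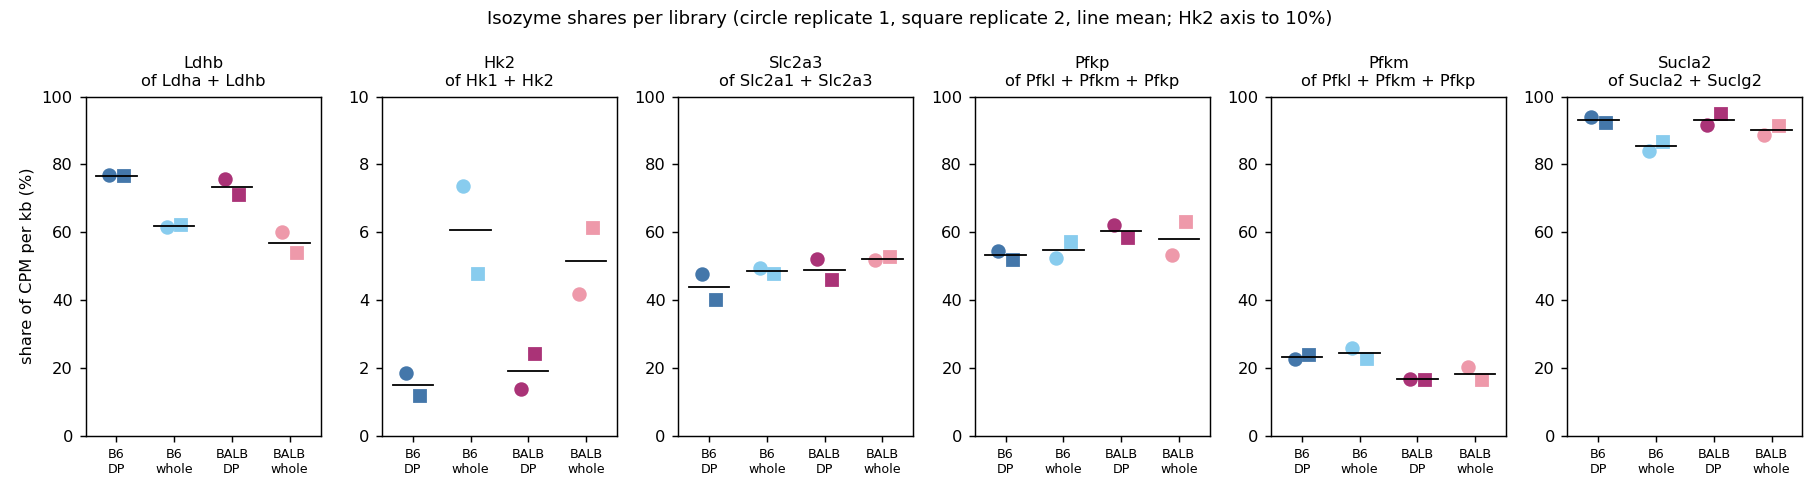
Share of each named isozyme in the summed CPM per kb of its step, by library, with a line at the group mean. The Ldhb share is lower in all 4 whole thymocyte libraries (53.8% to 62.1%) than in all 4 DP libraries (71.1% to 76.8%), and the Hk2 share, on an axis to 10%, is higher.

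Genes around these pathways were read from lists of other isozymes, flux regulators, pyruvate entry, anaplerosis, the pentose phosphate pathway, hypoxia response and metabolic transcription factors. In whole over DP thymocytes over both strains, 2 of 9 tested transcription factors were higher (22.2%, against 12.5% of all genes) and 1 was lower (11.1%, against 8.01%), which rests on few genes. Myc, which drives many glycolytic genes, had means of 15.97 ± 2.62 CPM in B6 DP, 57.6 ± 9.69 in B6 whole, 16.04 ± 0.380 in BALB DP and 56.6 ± 3.24 in BALB whole thymocytes (SD, n = 2). Its log2 fold change was 1.83 ± 0.13 (edgeR adjusted p = 2.16e-06). Foxk1, a forkhead factor tied to glycolytic genes, was at 0.38 ± 0.094 (adjusted p = 0.0151) and Nrf1, a factor for nuclear genes of respiration, at -0.33 ± 0.073 (adjusted p = 0.00724). Of 16 tested hypoxia response genes, 5 were lower (31.2%, against 8.01% of all genes) and 0 higher (against 12.5%). Kdm3a, a histone demethylase induced by hypoxia, was at -0.32 ± 0.072 (edgeR adjusted p = 0.00787), Mxi1 at -0.42 ± 0.10 (0.0125), Hif1a at -0.29 ± 0.082 (0.0272) and Ddit4 at -0.44 ± 0.13 (0.0350). The fifth was Arnt, the partner of Hif1a.

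The other lists in the same comparison are small and are read against the same shares of all genes, 12.5% higher and 8.01% lower. Of these, 1 of 10 tested isozymes and transporters was higher (10%), the ADP-dependent glucokinase Adpgk at 0.67 ± 0.13 (edgeR adjusted p = 0.00360), and 1 was lower (10%), the D-lactate dehydrogenase Ldhd at -0.57 ± 0.18 (0.0437). Of 6 flux regulators 2 were higher (33.3%) and 0 lower, Pck2 at 1.49 ± 0.35 (0.0111) and Tigar, listed under an older symbol, at 1.29 ± 0.37 (0.0269). Of 11 pyruvate entry genes 2 were lower (18.2%) and 0 higher, the kinase Pdk2 at -0.60 ± 0.19 (0.0455) and the mitochondrial pyruvate carrier subunit Mpc2 at -0.51 ± 0.16 (0.0441). Of 15 other TCA cycle and anaplerosis genes 1 was higher (6.67%) and 0 lower, the aspartate aminotransferase Got1 at 0.90 ± 0.18 (0.00404), and of 7 pentose phosphate genes 1 was higher (14.3%) and 0 lower, Pgd at 0.45 ± 0.11 (0.0145).

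Between strains, the pyruvate dehydrogenase kinase Pdk1, which limits the entry of pyruvate into the TCA cycle, was lower in BALB, at -2.25 ± 0.14 in DP (edgeR adjusted p = 1.09e-06) and -2.38 ± 0.14 in whole thymocytes (adjusted p = 1.11e-06). The prolyl hydroxylase Egln1, which marks Hif1a for degradation, was at -0.98 ± 0.12 in DP (edgeR adjusted p = 0.000230) and -0.48 ± 0.12 in whole thymocytes (adjusted p = 0.0352). In DP thymocytes Got1 (0.95 ± 0.22, adjusted p = 0.0171) and Pdk3 (0.66 ± 0.19, 0.0381) were higher in BALB, and Glud1 (-0.48 ± 0.14, 0.0484) was lower.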

How the data were processed

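The authors deposited raw counts per gene symbol, 1 file for each of 8 RNA-seq libraries of total RNA. The kit (TruSeq RNA Sample Prep v2, per the labels' protocols) does not mark strand. The submitters' processing notes name HISAT2 2.2.0 with mm10, HTSeq and DESeq2 1.42.1, and the read length, annotation and HTSeq version were not stated in the sources used here. Between 10.1% and 11.9% of reads were not unique, and reads outside genes did not enter library sizes.

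In R 4.3.3 with edgeR 4.0.16, low genes were removed by filterByExpr over the 4 groups, libraries were scaled by TMM (factors 0.957 to 1.05), and quasi-likelihood tests were made with a coefficient for each group (common coefficient of variation 0.114). Comparisons over both strains or populations came from an additive fit. P-values were adjusted over all 11409 genes. The test was also run on counts simulated with the same spread in every gene and group. The groups here differed in spread, so that check cannot tell how the test performs on these libraries. The members and lists were chosen with earlier results of these data known. Every called member is named, and where none was called the 3 with the smallest p. Values in all 8 libraries are given for members called anywhere and for the 5 highest per length, and up to 4 called genes are named from each further list. Of 194 list genes 193 were found, 3 under an older symbol.

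Alternatives were the size factors and Wald test of DESeq2 1.42.0, upper-quartile scaling, limma-voom (limma 3.58.1), dropping the filter, requiring 1 CPM in 2 libraries with a mean of at least 50 counts, a replicate block, fitting the 4 compared libraries alone, and leaving out libraries. Transcripts came from GENCODE M21 and promoters of 35 members from RefSeq's GRCm38.p6. Windows of 50 bases were looked up on both strands of other genes' transcripts, leaving out genes that overlap the member's own locus. Limits from a count of 0 cover counting error only.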

Additional observations from a re-analysis of the deposited data

How the results depend on the processing

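Alternatives were run for the called members and, where a comparison called none, for the 3 with the smallest p. Of 542 such values, 425 kept their direction and side of the threshold, 104 lost the call, 13 gained one and 0 reversed. With 1 library left out, the number of called members ran from 0 to 11 for BALB over B6 in DP, 0 to 4 in whole thymocytes, 0 to 5 over both populations, 0 to 7 for whole over DP in B6, 2 to 14 in BALB, 5 to 9 over both strains and 0 to 2 for the interaction.

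The strict filter left 2 calls for whole over DP in B6 and 4 over both strains, and no filter gave 1 for the interaction. DESeq2's Wald test gave 2 for BALB over B6 in DP and 3 for whole over DP in BALB. The 4 compared libraries alone gave 0 for BALB over B6 in DP, 2 in whole thymocytes, 10 for whole over DP in B6 and 3 in BALB. Without both BALB libraries numbered 1 the counts were 5 for BALB over B6 in whole thymocytes, 10 for whole over DP in B6 and 11 over both strains. The causes were not tested.

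The replicate block gave 5 calls for BALB over B6 in DP, 0 in whole thymocytes, 3 over both populations (Pfkp lost), 4 for whole over DP in B6, 6 in BALB (Eno3 lost), 7 over both strains and 0 for the interaction. Same-numbered libraries did not deviate together (correlations -0.038 to 0.057), so the number was not used as a pairing. With 2 libraries per group, the median standard error over all genes was 0.199 (log2) for BALB over B6 in DP and 0.280 for the interaction, and members with few counts (Pgam1, Hk2, Gapdh, Slc16a3) had larger errors.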
